A study of Caenorhabditis elegans with 6 samples.

Results

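The F-box A genes of Caenorhabditis elegans were followed in whole worms in which rab-11.1, a small GTPase gene of recycling endosomes, was targeted by RNA interference (RNAi). The members were the features whose listed name is fbxa followed by a number, leaving out fbxa-75 and fbxa-158. They numbered 220 of the 46739 features in the deposited table. The design compared 2 groups of 3 libraries each. All worms were wild type of the strain N2, harvested as L4 larvae and kept at 20 °C on HT115 bacteria, on plates with IPTG and carbenicillin. They ate either bacteria with the empty vector or bacteria that make double-stranded RNA against rab-11.1, in both cases throughout development. Polyadenylated RNA came from whole animals, so every level is an average over all tissues, and a change in the number of cells of one type cannot be told apart from a change in RNA per cell.

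F-box proteins are the substrate-binding parts of SCF ubiquitin ligases. The F-box motif docks on a Skp1-like adaptor (an SKR protein in worms), the adaptor binds a cullin, and the cullin carries the RING protein that recruits the ubiquitin-conjugating enzyme. The rest of the F-box protein selects what is ubiquitylated, and in the F-box A class this part is usually an FTH domain, named after the germline sex determination protein FOG-2. Caenorhabditis elegans has expanded this class far beyond that of other animals, with many copies side by side on the chromosome arms. The substrates of nearly all members are unknown. FBXA-75 and FBXA-158, the pair left out here, are known to act with the cullin CUL-6 in the intracellular pathogen response.

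The libraries held 22946375 to 30183162 reads. Levels are in RPKM, reads per kilobase scaled to library depth, and 1 read per kilobase came to 0.0331 to 0.0436 RPKM. The target rab-11.1 stood at 411.1, 398.2 and 409.5 RPKM with the empty vector, and rab-11.1 RNAi replicates 1, 2 and 3 (the RNAi libraries) held 151.3, 137.8 and 632.6 RPKM. The library labelled as replicate 3 of rab-11.1 RNAi thus goes against its label for the target, and every direction below includes it unless it is left out by name. Markers of late larval and adult stage (vitellogenins, late collagens and lin-29) were summed in each library. They stood at 1576, 336 and 1441 RPKM in empty vector replicates 1, 2 and 3 and at 217, 196 and 346 RPKM in the RNAi libraries. Empty vector replicate 2 thus lay within the range of the RNAi libraries. Of the 10 stage markers 5 were lower and 0 higher. Of the marker lists for intestine, germline, sperm, epidermis, neurons, body wall muscle and pharynx, vha-6 was lower and elt-3 and snb-1 were higher, and no marker was at 0 in all libraries. The summed levels did not overlap for neurons (298 to 343 RPKM with the empty vector, 393 to 561 RPKM with the RNAi), for body wall muscle (3845 to 4018 RPKM and 3337 to 3637 RPKM) and for pharynx (114 to 131 RPKM and 94.9 to 107 RPKM). They overlapped for intestine, germline, sperm and epidermis.

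After rab-11.1 RNAi 36 of the 114 F-box A genes that could be tested rose and 0 fell. Of the 220 members, 18 were at 0 in every library, 88 had reads but stayed below the filter of 1 RPKM in at least 3 libraries, and 114 were tested. Among the 114, 36 rose (31.6%), 0 fell and 78 did not pass by limma at an adjusted p of 0.05 with Benjamini-Hochberg adjustment over all features tested. Over all 13833 features tested, 7.93% were called higher and 1.07% lower. Of the members, 0 had a lower level even at an unadjusted limma p under 0.05, beside 682 of the 13833 features tested. The median log2 fold change, on log2(RPKM + 1), was 0.39 over the tested members and 0.09 over all features tested. The 3 rab-11.1 RNAi libraries lay above the 3 empty vector libraries in 61 of the 114 members and below them in 1, while the same held for 27.4% and 6.53% of all features tested.

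The count of 36 depends on single libraries. It came to 15 without empty vector replicate 1, 12 without empty vector replicate 3 and 20 without rab-11.1 RNAi replicate 1, where 2.31%, 1.92% and 3.05% of all features were called higher. Leaving out the library labelled as replicate 3 of rab-11.1 RNAi gave 26, beside 4.71% of all features. With both replicate 3 libraries left out, which leaves 2 libraries a group, it was 2 (fbxa-60 and fbxa-98), against 0.289%. The fold between group means was 2 or more in 35 of the 36, and the median fold was 3.05. Over all features, 497 of the 1097 called higher had such a fold, which is 3.59% of all features tested. Neuron, muscle and pharynx marker sums did not overlap between the groups in the same libraries. Stage marker sums were lower in the RNAi libraries than in empty vector replicates 1 and 3, but empty vector replicate 2 lay within the RNAi range. The part of these markers in the increases was not tested.

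The filter favours genes that are high after rab-11.1 RNAi. Members under 1 RPKM in every empty vector library entered the test only because each RNAi library came to at least 1 RPKM, and they numbered 6 (fbxa-30, fbxa-50, fbxa-66, fbxa-162, fbxa-163 and fbxa-199), all called higher. Of all 122 features that entered the test in this way, 65 were called higher. Among the 108 members that reached 1 RPKM in at least 1 empty vector library, 30 rose, beside 7.53% of the features that met the same condition. With no filter, 34 of 202 members passed, beside 4.34% of all features.

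**Figure D1:**
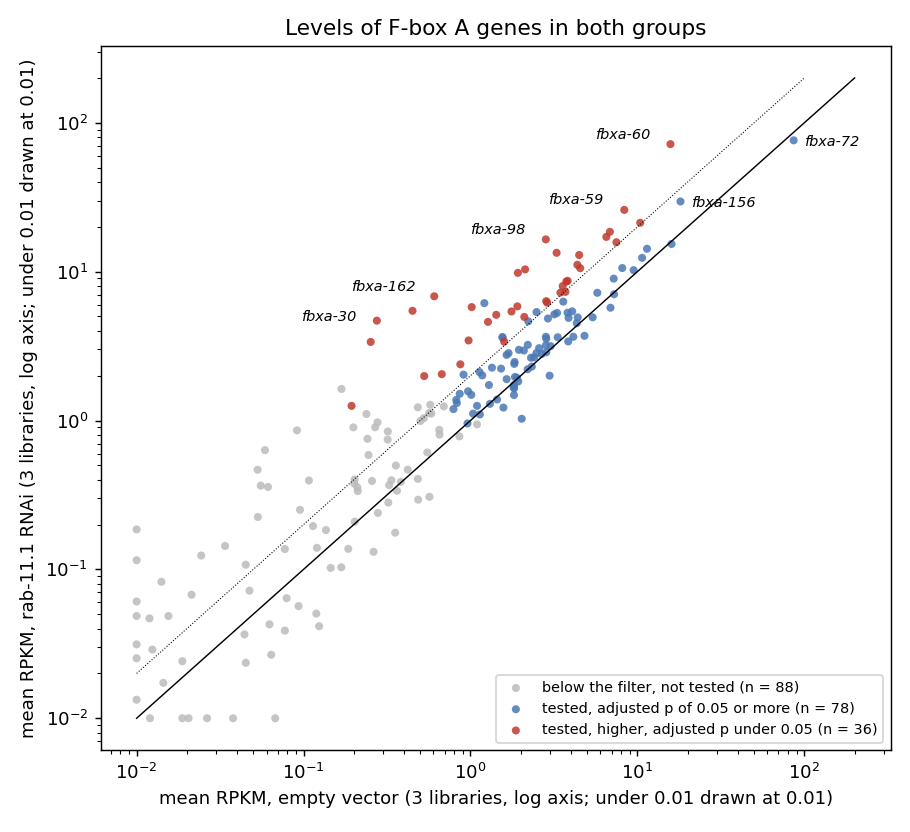
Mean RPKM of the F-box A genes with reads in the empty vector group (x axis) and the rab-11.1 RNAi group (y axis), 1 point a gene, both axes logarithmic. The solid line marks equal means and the dotted line a 2-fold higher mean after rab-11.1 RNAi. Of the 36 genes called higher, 35 lie at or above the dotted line, over a wide range of levels. Over all features, not drawn, 497 of the 1097 called higher had such a fold. The gene with the highest mean, fbxa-72, lies below the solid line.

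The F-box A gene with the largest rise in RPKM was fbxa-60 (T12B5.10, WBGene00020456, WBcel235 chromosome III, 944733 to 946300, minus strand, 3 exons). It stood at 15.05, 16.1 and 16.2 RPKM with the empty vector and 72.1, 88.2 and 55.2 RPKM in the RNAi libraries, here and below in the order of replicates 1, 2 and 3. The groups were far apart, and the library labelled as replicate 3 of rab-11.1 RNAi was the lowest of its group. The mean went from 15.8 ± 0.63 to 71.8 ± 16.5 RPKM (SD, n = 3), a 4.55-fold rise with a log2 fold change of 2.09 (SE 0.16, limma adjusted p = 0.00200). These values rested on 514 to 565 reads with the empty vector and 1620 to 2406 in the RNAi libraries. Its neighbour fbxa-59 (939941 to 943476) stood at 7.56, 8.69 and 8.78 RPKM with the empty vector and 24.0, 31.8 and 22.2 RPKM in the RNAi libraries. The rise was 3.11-fold (adjusted p = 0.00300), and the groups did not overlap. The groups were apart in all 1097 features called higher, so here and below this adds nothing to a call.

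On chromosome IV, fbxa-98 (C08F11.5, WBGene00007453, 13633407 to 13635223, plus strand, 4 exons) had the smallest adjusted p of the family. It was even among the empty vector libraries, at 2.97, 2.83 and 2.68 RPKM, and stood at 17.6, 18.3 and 13.5 RPKM in the RNAi libraries. The rise was 5.82-fold (log2 fold change 2.18, SE 0.15, limma adjusted p = 0.00141). The lowest rab-11.1 RNAi library was again the one labelled replicate 3, still far above every empty vector library.

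The genes that rose from very low empty vector levels include a pair of neighbours on chromosome II. The gene fbxa-162 (C08E3.5, WBGene00015597, 1607869 to 1609014, minus strand), annotated as a pseudogene, stood at 0.382, 0.768 and 0.671 RPKM with the empty vector (12, 24 and 19 reads) and at 6.36, 10.1 and 4.01 RPKM in the RNAi libraries (152, 246 and 105 reads). Its log2 fold change of 2.22 (SE 0.30, limma adjusted p = 0.00824) was the largest of the family. Next to it, fbxa-163 (C08E3.6, 1609252 to 1610730, minus strand) stood at 0.245, 0.41 and 0.694 RPKM and at 2.47, 9.98 and 3.92 RPKM. In both genes rab-11.1 RNAi replicate 2 was the highest, and in fbxa-163 it held over 2 times the level of either other library. The call of fbxa-163 (log2 fold change 1.99, SE 0.41, adjusted p = 0.0322) ended without any single empty vector library or if the library labelled as replicate 3 of rab-11.1 RNAi was left out (adjusted p up to 0.118). The excluded fbxa-158 lies in the same block, at 1619814 to 1621280, and went from 0.142 ± 0.0347 to 4.38 ± 1.19 RPKM (SD, n = 3, adjusted p = 0.00244).

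Low starting levels also marked fbxa-30 and fbxa-66 on chromosome III. The gene fbxa-30 (ZC47.4, 1274425 to 1275613) stood at 0.0722, 0.472 and 0.28 RPKM with the empty vector, from 2, 13 and 7 reads, and at 3.28, 7.14 and 3.64 RPKM in the RNAi libraries, from 69, 153 and 84 reads. The groups did not overlap, and the ratio of the means, 17.1, was the highest among the genes called, although it rests on few empty vector reads (limma adjusted p = 0.00782). The gene fbxa-66 (Y54F10BM.11, 2309792 to 2314035) stood at 0.134, 0.325 and 0.299 RPKM and at 4.42, 3.69 and 2 RPKM. Here rab-11.1 RNAi replicate 1 was the highest, and the 13.3-fold difference passed (adjusted p = 0.00889) but not without empty vector replicate 3 (adjusted p = 0.0507).

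The remaining genes among the 10 largest changes had empty vector means of 1.02 to 3.28 RPKM. The neighbours fbxa-26 (1340597 to 1342522, minus strand) and fbxa-27 (1342969 to 1344744, plus strand) of chromosome III had similar levels. For fbxa-26 these were 2.58, 1.22 and 2.57 RPKM against 10.4, 11 and 9.64 RPKM, and for fbxa-27 they were 2.24, 1.3 and 2.23 RPKM against 12.2, 8.57 and 8.62 RPKM. In both genes empty vector replicate 2 was the lowest library of all. Among the RNAi libraries replicate 2 was the highest in fbxa-26 and the lowest in fbxa-27, and the rises were 4.87-fold (adjusted p = 0.00489) and 5.10-fold (adjusted p = 0.00468). The gene fbxa-79 (1305716 to 1308294), some way to their left, stood at 3.92, 3.38 and 2.55 RPKM against 11.6, 18 and 10.5 RPKM, a 4.08-fold rise (adjusted p = 0.00775). On chromosome II, fbxa-182 (2409633 to 2412749) stood at 1.05, 1.24 and 0.768 RPKM against 6.05, 6.50 and 4.79 RPKM. It rose 5.68-fold (adjusted p = 0.00309), with tight groups that did not overlap.

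**Figure D2:**
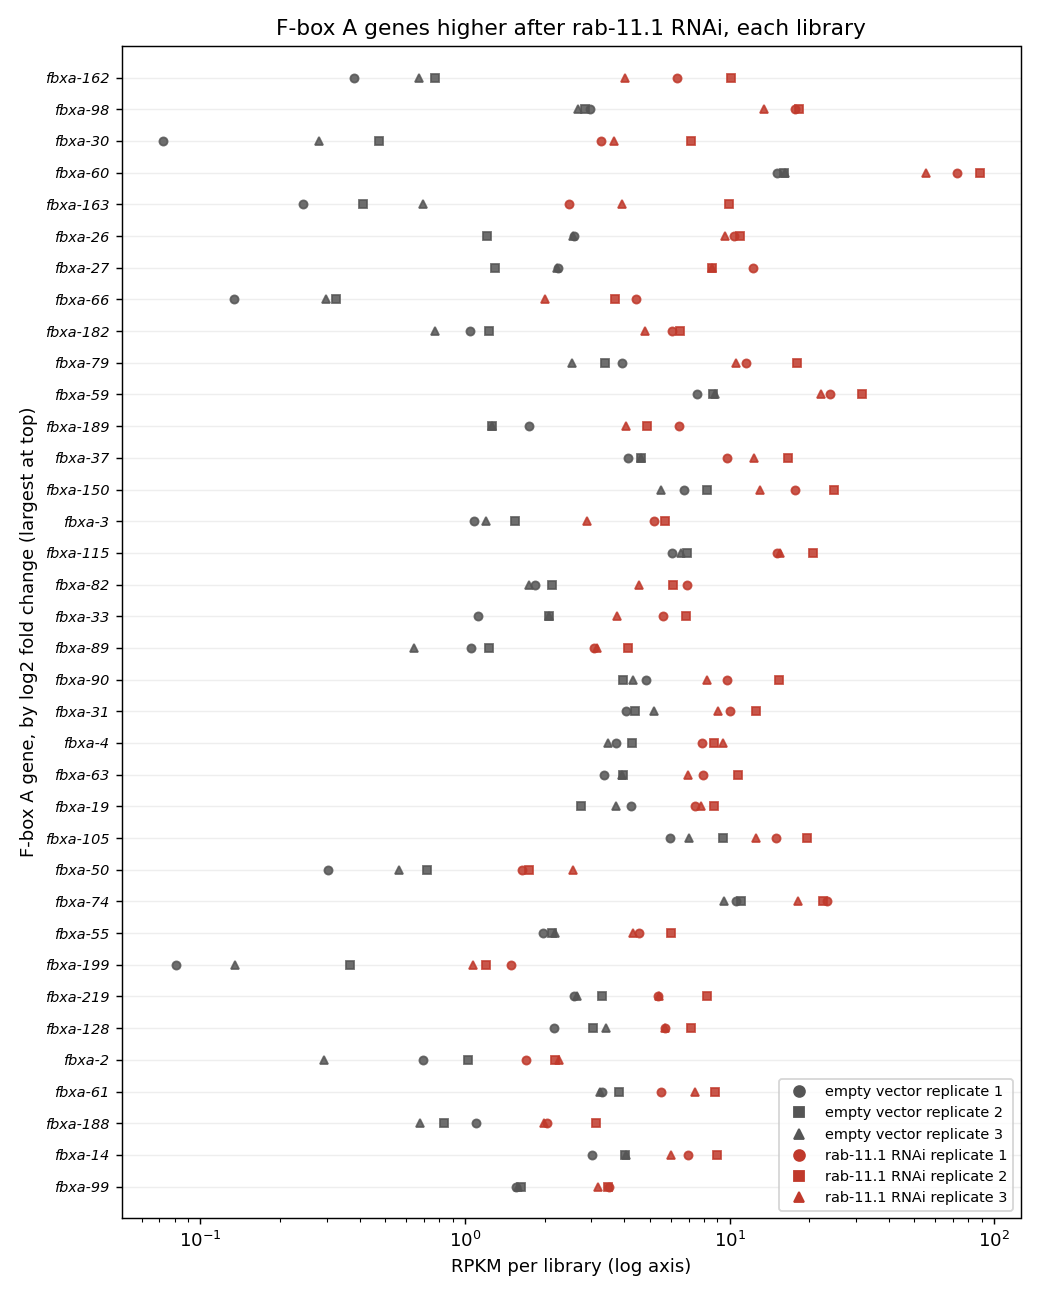
RPKM in each library (logarithmic x axis) for the 36 F-box A genes called higher, ordered by log2 fold change, with grey for empty vector, red for rab-11.1 RNAi and the symbol for the replicate number. In all 36 genes the 3 red symbols lie to the right of the 3 grey ones, as in all 1097 features called higher. This separation thus comes with the call and adds nothing to it. The red triangle, the library labelled as replicate 3 of rab-11.1 RNAi, is the lowest red symbol in 24.

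Beside the 10 largest changes, fbxa-59 and fbxa-74, the other 24 genes called rose 1.98-fold to 6.47-fold, with adjusted p values of 0.00468 to 0.0444. On chromosome III these were fbxa-14, fbxa-19, fbxa-31, fbxa-33, fbxa-37, fbxa-50, fbxa-55, fbxa-61, fbxa-63, fbxa-89, fbxa-128 and fbxa-219. Their means over the RNAi libraries were 1.99 to 12.9 RPKM. On chromosome V the genes were fbxa-2, fbxa-82, fbxa-90, fbxa-99, fbxa-105, fbxa-115, fbxa-150, fbxa-188, fbxa-189 and fbxa-199, with such means of 1.25 to 18.5 RPKM. On chromosome II they were fbxa-3 and fbxa-4. Whichever single library was left out, 11 of the 36 members called kept their call. Over all features, 255 of the 1097 called higher did, which is 1.84% of all features tested. The members that kept it were fbxa-26, fbxa-27, fbxa-30, fbxa-59, fbxa-60, fbxa-74, fbxa-79, fbxa-98, fbxa-115, fbxa-162 and fbxa-182. The other 25 lost their call in at least 1 such fit.

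Of the 5 members with the highest mean over all libraries, 3 rose and 2 did not pass. RPKM is a level per length, so it can be ranked across genes. The F-box A gene with the highest mean over all libraries was fbxa-72 (F31F4.15, chromosome V, 674886 to 676753), at 72.8, 109.6 and 76.5 RPKM with the empty vector and 92.6, 46.6 and 89.3 RPKM in the RNAi libraries. The groups overlapped, and replicate 2 was the extreme library of each, the highest with the empty vector and the lowest with rab-11.1 RNAi (log2 fold change -0.22, SE 0.29, limma adjusted p = 0.676). The sign of this difference turned when replicate 2 was left out, to a log2 fold change of 0.28 without both replicate 2 libraries (adjusted p = 0.0442) and 0.10 without the rab-11.1 RNAi one alone. By mean level fbxa-60 came next, followed by fbxa-156, fbxa-59 and fbxa-74.

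Of these, fbxa-74 (Y22D7AR.9, chromosome III, 1696952 to 1698986) stood at 10.6, 11.05 and 9.54 RPKM against 23.3, 22.5 and 18.1 RPKM and rose 2.05-fold (limma adjusted p = 0.00635). For fbxa-156 (C06H5.1, chromosome V, 17895314 to 17896786) the values were 15.4, 20.3 and 18.6 RPKM against 25.7, 37.8 and 25.2 RPKM. Its groups did not overlap, yet the difference did not pass (adjusted p = 0.0672, log2 fold change 0.66, SE 0.18), although it passed with the replicate number as a block (adjusted p = 0.0117). Summed over the 220 members, the family stood at 451, 495 and 477 RPKM with the empty vector and at 782, 883 and 718 RPKM in the RNAi libraries. The number of members above 10 RPKM was 7 in the empty vector mean and 19 in the rab-11.1 RNAi mean.

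The 78 members that did not pass include 25 whose rab-11.1 RNAi libraries all lay above the empty vector libraries, as did 21.4% of all tested features that did not pass. The RNAi library of replicate 2 stood apart in fbxa-24, a gene singled out after its values were seen. It was at 1.56, 1.06 and 1.02 RPKM with the empty vector and at 2.30, 13.6 and 2.56 RPKM in the RNAi libraries, so that 1 library carried most of the difference (log2 fold change 1.34, SE 0.55, limma adjusted p = 0.182). The 3 most negative log2 fold changes were those of fbxa-42 (-0.52, SE 0.32), fbxa-84 (-0.38, SE 0.24) and fbxa-192 (-0.33, SE 0.20), with adjusted p values of 0.354, 0.372 and 0.355. For fbxa-42 the levels were 2.73, 0.777 and 2.57 RPKM against 1.38, 0.642 and 1.06 RPKM. Replicate 2 was the lowest library in both groups, and the groups overlapped, although the RNAi library was the lower one at each replicate number. With the replicate number as a block the adjusted p was 0.0977, and without both replicate 2 libraries fbxa-42 passed as lower (log2 fold change -0.72, adjusted p = 0.0385). In fbxa-6, also singled out afterwards, the empty vector libraries, at 6.67, 6.93 and 7.09 RPKM, all lay above the RNAi ones, at 5.37, 5.76 and 6.03 RPKM, by a difference that did not pass (log2 fold change -0.23, SE 0.12, adjusted p = 0.25).

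Below the filter, the 88 members with reads reached at most 3.63 RPKM in any library. In 24 of them all rab-11.1 RNAi libraries lay above all empty vector libraries, and in 2 (fbxa-137 and fbxa-187) the reverse held, while among all 5658 features with reads below the filter the shares were 7.88% and 3.39%. The largest difference was that of fbxa-36, at 0.213, 0.214 and 0.0788 RPKM against 0.28, 3.63 and 0.982 RPKM, from 6, 6 and 2 reads against 6, 79 and 23. Replicate 2 made most of this difference. Next came fbxa-35 (0.142, 0.179 and 0.394 RPKM against 0.841, 1.84 and 0.64 RPKM). The gene fbxa-25 was at 0, 0.19 and 0.0839 RPKM against 0.447, 1.22 and 0.908 RPKM. In fbxa-153 the levels were 0.464, 0.408 and 0.579 RPKM against 0.839, 1.72 and 1.12 RPKM. The groups of none of these 4 genes overlapped. Like fbxa-26 and fbxa-79, fbxa-25, fbxa-35 and fbxa-36 lie in a dense block of F-box A genes on chromosome III. The 18 members at 0 were not detected at this depth, where a count of 0 allows up to 3 reads a library, or 0.0994 to 0.131 RPKM for 1 kb of transcript.

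The members were also counted by chromosome. On chromosome III 20 of the 42 tested members rose, on chromosome II 5 of 10, on chromosome V 10 of 46, on chromosome IV 1 of 2, on chromosome I 0 of 11 and on chromosome X 0 of 3. The counts on chromosomes III, II and V were 14, 4 and 7 if the library labelled as replicate 3 of rab-11.1 RNAi was left out. Tested features other than these members were called higher at 7.42% on chromosome III, 6.47% on chromosome II, 11.6% on chromosome V, 7.68% on chromosome IV, 6.72% on chromosome I and 7.02% on chromosome X. At such shares, counts of 0 among the 11 members of chromosome I and the 3 of chromosome X are near the background. On chromosome I the 11 tested members had log2 fold changes with a median of 0.05, and the largest mean there, fbxa-101, was 16.0 RPKM with the empty vector and 15.3 RPKM in the RNAi libraries. The difference between chromosomes was not tested, and members side by side may share sequence and reads.

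**Figure D3:**
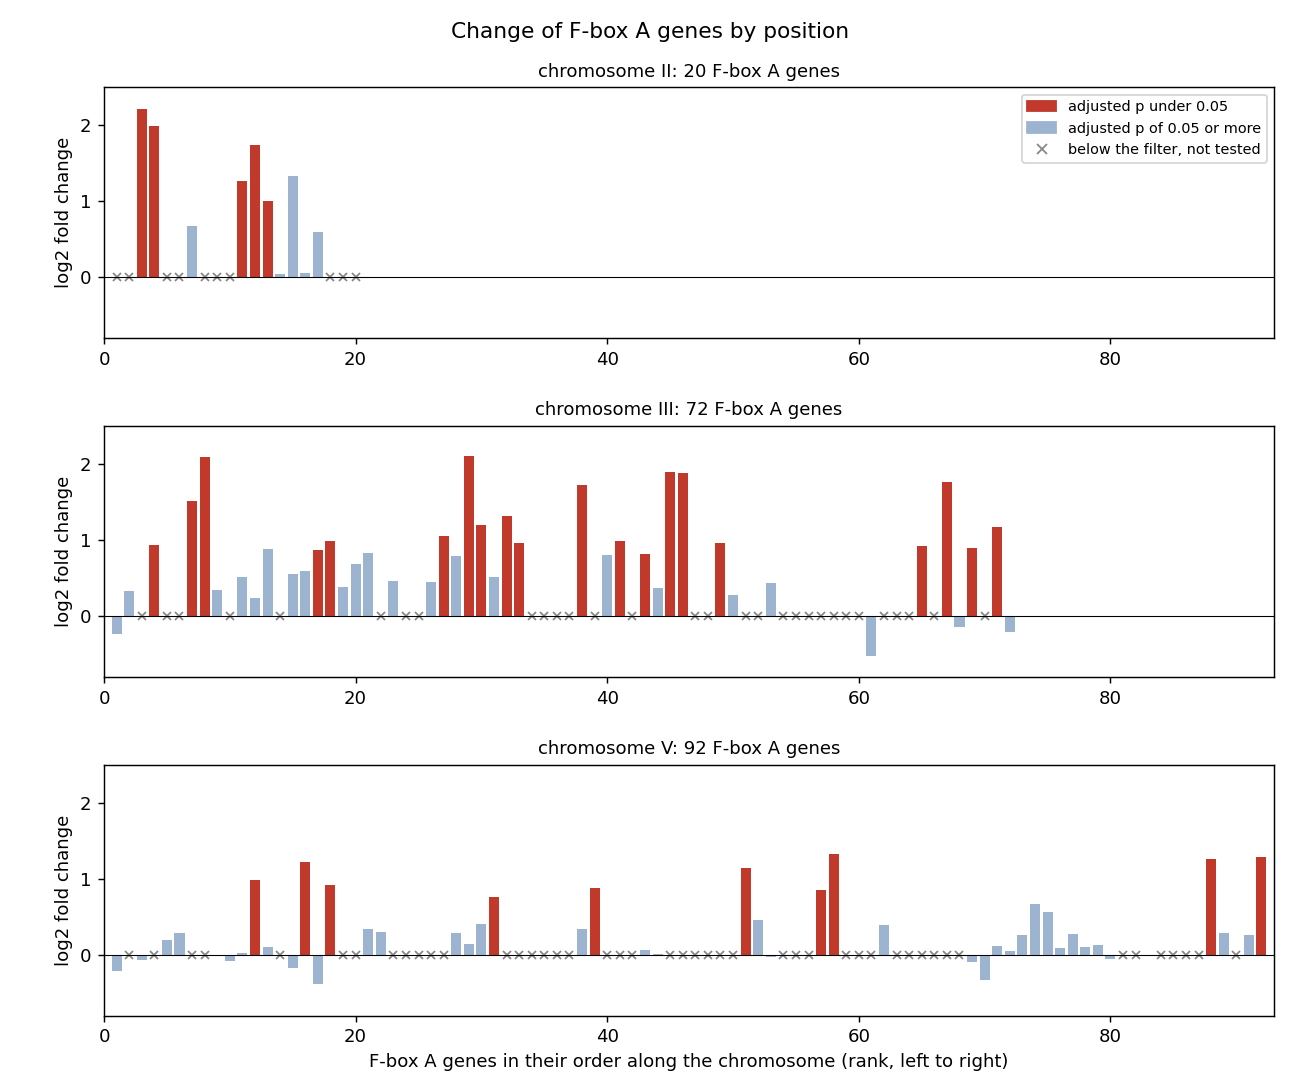
Log2 fold change on log2(RPKM + 1) for the F-box A genes of chromosomes II, III and V, in their order along each chromosome, with red bars for genes called higher, blue bars for tested genes that did not pass and crosses for genes below the filter. Red bars lie among blue ones within the same stretches, 20 on chromosome III, 5 on chromosome II and 10 on chromosome V.

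Blocks of neighbouring members were defined, after the values were seen, as 5 or more members with gaps of at most 20 kb. This gave 10 blocks with 112 of the 220 members, of which 51 were tested and 22 rose. Of the tested members outside blocks 14 of 63 rose, and of all features tested 7.93% did. The largest block, on chromosome III from 1236015 to 1349450, held 32 members in 113.4 kb. Of these 22 were tested and 12 rose (fbxa-14, fbxa-19, fbxa-26, fbxa-27, fbxa-30, fbxa-31, fbxa-33, fbxa-37, fbxa-50, fbxa-61, fbxa-63 and fbxa-79), with a median log2 fold change of 0.85. The block that holds fbxa-59 and fbxa-60, from 933422 to 963833, had 8 tested members, of which 3 rose. In a block on chromosome V from 17637982 to 17659385, 0 of the 5 tested members rose and the median was 0.05, a count near the background of 11.6% for other features of that chromosome. Members that passed and members that did not lay side by side within blocks.

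Within these blocks 21 other features matched by name were tested, and 3 of them rose. One was the excluded fbxa-158. Another was skr-5, a Skp1-related adaptor gene, on chromosome V at 17347902 to 17348723, beside fbxa-189 (17345214 to 17347781) and fbxa-188 (17342791 to 17344926). It stood at 1.76, 1.77 and 1.64 RPKM with the empty vector and at 16.7, 25.8 and 10.2 RPKM in the RNAi libraries. Beside it fbxa-189 went from 1.43 ± 0.275 to 5.13 ± 1.21 RPKM and fbxa-188 from 0.87 ± 0.214 to 2.39 ± 0.639 RPKM (SD, n = 3, limma adjusted p = 0.0107 and 0.0391). The third was Y82E9BL.18 in the large chromosome III block, at 1.6, 1.41 and 1.38 RPKM against 6.35, 12 and 8.12 RPKM (adjusted p = 0.0049). The remaining 18, among them atx-3, efl-1 and nhr-116, did not pass.

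Coding genes and pseudogenes were counted apart. Of the 168 members annotated as protein coding 89 were tested and 34 rose, and of the 52 annotated as pseudogenes 25 were tested and 2 rose, fbxa-33 and fbxa-162. The 38.2% of tested coding members stands above the 7.93% of all features called higher, and the 8% of tested pseudogenes stands near it. The median log2 fold change was 0.51 over the tested coding members and 0.11 over the tested pseudogenes, and the difference was not tested. Exons of 39 members overlap those of another annotated gene. Among the genes called, fbxa-3 overlaps linc-16 on its own strand and fbxc-19 on the other, and fbxa-19, fbxa-27 and fbxa-99 lie antisense to fbxa-15, Y82E9BL.6 and oac-20. The piRNA genes opposite fbxa-66, fbxa-98 and fbxa-188 complete the 7 overlaps. Whether counting used the strand is not given in the sources used here, so reads of such pairs cannot be told apart, nor can reads shared by near-identical members.

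The libraries of a group ranked alike across the genes called. The highest of the rab-11.1 RNAi libraries was replicate 2 in 26 of the 36 members (72.2%), and the lowest was the library labelled replicate 3 in 24 (66.7%). Over all 1097 features called higher these shares were 75.6% and 61.3%, so the members' order was close to that of the other rising genes. In the median member called, the library labelled replicate 3 stood at 77.8% of the mean of the other rab-11.1 RNAi libraries, and over all features called higher at 87.7%. Replicate 2 was the lowest library of both groups in 19 of the 114 tested members (16.7%), among them fbxa-27, fbxa-42 and fbxa-192, and in 27.4% of all features tested. It was the highest library of both groups in 30 of the 114 (26.3%) and in 23.9% of all features tested. Among the 36 called this held for 12 (33.3%), beside 44.0% of all features called higher. Sperm markers were also lowest in replicate 2 of both groups, summed at 125 and 113 RPKM against 230 to 325 RPKM in the other libraries. The same held for germline markers (365 and 293 RPKM against 439 to 604 RPKM) and for stage markers. Neuron and epidermis markers were highest in replicate 2 of both groups. Intestine, body wall muscle and pharynx markers were highest there with the empty vector and lowest there with the RNAi. The part of these markers in the replicate 2 values was not tested.

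Other parts of the ubiquitin ligase are known to act with such F-box proteins. Of 30 genes of the cullin-RING core (cullins, SKR adaptors, RING proteins and NED-8) 20 were tested, and 5 rose (25%) and 0 fell, beside 7.93% and 1.07% of all features. The adaptor gene skr-5 rose 10.2-fold (limma log2 fold change 2.68, SE 0.30, adjusted p = 0.00468). The cullin gene cul-6 stood at 3.83, 4.43 and 3.73 RPKM against 14.0, 17.8 and 13.1 RPKM and rose 3.74-fold (log2 fold change 1.67, SE 0.15, adjusted p = 0.00240). The adaptor genes skr-3, skr-4 and skr-20 made up the other calls. The excluded fbxa-75 was not tested, at 0, 0.0552 and 0 RPKM against 0.0722, 0.106 and 0.0659 RPKM, which is 0 to 3 reads a library.

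The other large adaptor families of the worm are read against the same 7.93% of all features called higher. Of 113 F-box B genes 67 were at 0 in every library, 1 was tested and 0 rose, too few to describe. Of 55 F-box C genes 16 were tested and 7 rose (43.8%), the largest changes being those of fbxc-23 (4.41-fold, limma adjusted p = 0.00889) and fbxc-54 (2.80-fold, adjusted p = 0.0332). The other calls were fbxc-1, fbxc-2, fbxc-3, fbxc-4 and fbxc-5, which had nearly the same levels. Their means were 5.89 to 6.75 RPKM with the empty vector and 14.6 to 16.2 RPKM in the RNAi libraries. Whether they share reads cannot be told here, so the 7 calls may not be separate. Of 44 bath genes, whose products bring substrates to the cullin CUL-3 through a BTB domain, 29 were tested and 2 rose (6.9%, near the background), bath-46 (3.57-fold, adjusted p = 0.0055) and bath-47 (3.03-fold, adjusted p = 0.0377). Of 49 math genes, named for the MATH domain, 17 were tested and 4 rose (23.5%), led by math-22 and math-24 (2.18-fold and 2.21-fold, adjusted p = 0.0139 and 0.0117). Of 7 F-box genes conserved outside nematodes (lin-23, sel-10, mec-15, fsn-1, prom-1, dre-1 and fbxl-1) all were tested and 0 passed in either direction, nor did the FTH relatives fog-2 and ftr-1. Differences between families were not tested.

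The share of members called higher was set beside that of all features under each other setting. Median-of-ratios rescaling gave 28 members beside 4.0% of all features, and quantile normalization gave 21 beside 3.79%. Pseudocounts of 0.1 and 5 RPKM gave 35 members each, beside 7.88% and 7.68%. A filter of 0.25 RPKM gave 37 of 157 members beside 6.71%, and a filter on the mean gave 36 of 133 beside 7.17%. Limma without the trend and robust options gave 36 beside 6.39%, and limma-voom on recovered reads gave 35 beside 7.60%. These settings left the members' share above that of all features. Without empty vector replicate 2 the count was 31 beside 6.82%, and without rab-11.1 RNAi replicate 2 it was 26 beside 4.86%. With the replicate number as a block it was 45 beside 16.5%, and that fit without both replicate 3 libraries gave 30 beside 5.80%. Without both replicate 2 libraries 39 members were higher beside 12.6%, and 1, fbxa-42, was lower beside 3.46%.

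**Figure D4:**
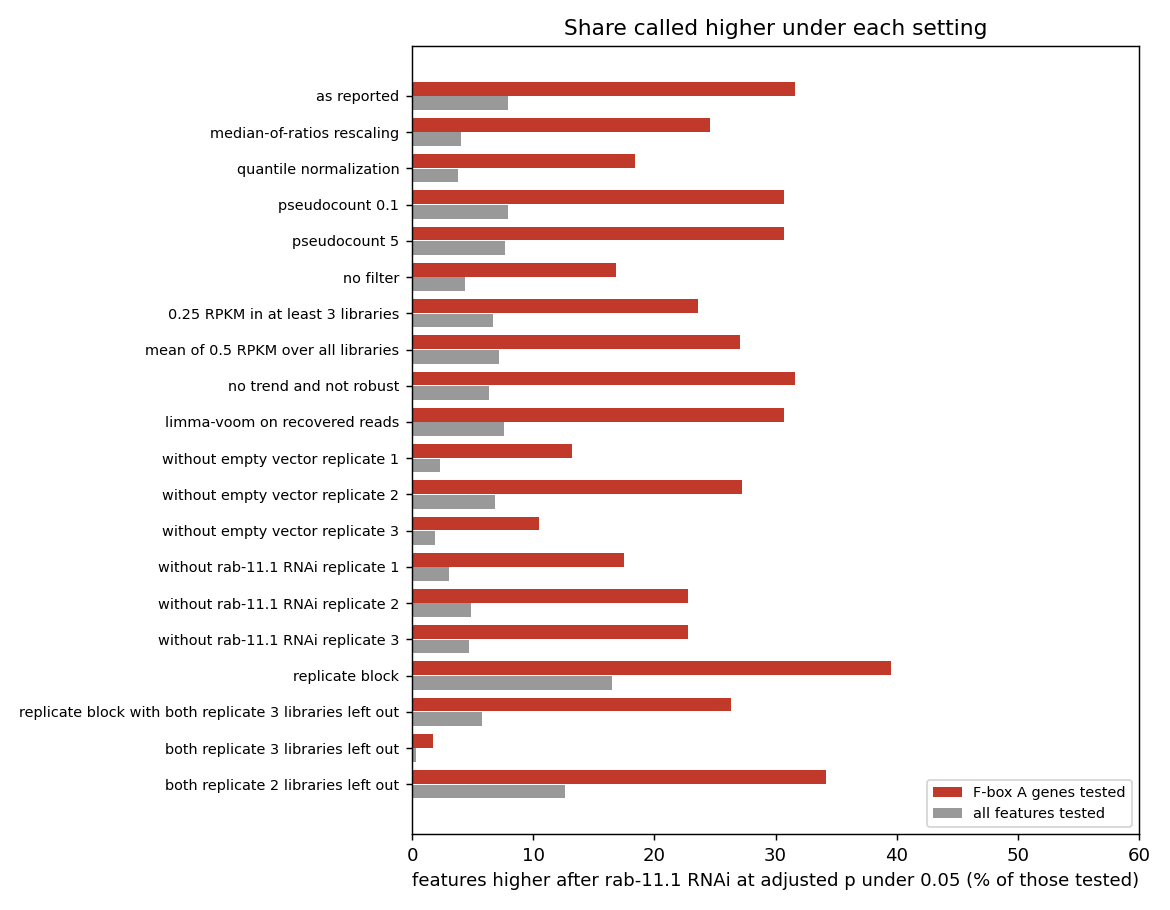
Share of tested features called higher after rab-11.1 RNAi at an adjusted p under 0.05 (x axis, in percent) under the reported settings and each alternative (y axis), in red for F-box A genes and in grey for all features tested. The red bar is the longer one under every setting shown, from 31.6% against 7.93% as reported to 1.75% against 0.289% with both replicate 3 libraries left out.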

How the data were processed

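The authors deposited RPKM values of paired reads for 46739 features in 6 libraries, with group means, per the file headers. WBcel235 is the build in the submitters' processing notes. No aligner, counter, annotation release or strand setting is given in the sources used here. Depths were recovered from the steps between low RPKM values, at 22946375 to 30183162 reads. With them every member with reads gave whole reads in all libraries (202 members, tolerance 0.001 reads at the annotated exon length for 21, 0.0001 at a length solved from the values for 181), so that members with very few reads have the lowest read numbers that fit. Recovered reads cover counting error only.

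The fit ran on log2(RPKM + 1) for features that reached 1 RPKM in 3 or more libraries. It used limma 3.58.1 under R 4.3.3, trend and robust eBayes, only the group in the design, two-sided tests, and p values adjusted by Benjamini-Hochberg over 13833 features. All adjusted p values come from this fit unless another setting is named. The fit was also run on simulated reads, with the same variability set for every gene and no replicate effect. These libraries differ from that, so the simulation does not vouch for the calls here. Fits that leave out libraries keep the same features, and a group of 2 is assumed to vary like the other. A fold is the ratio of the group means in RPKM, and the log2 values understate changes of low genes. An exact permutation test of 3 against 3 cannot go below p = 0.1, so none was used. The labels call the libraries biological replicates.

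Same-numbered libraries deviated together (correlations across tested features of 0.40, 0.62 and 0.35). Empty vector replicate 1, however, correlated more with the one labelled as replicate 3 of rab-11.1 RNAi (0.46). Deviations from the group mean cancel within a group, so these correlations are not independent and do not settle whether the numbers pair the samples. The main fit left the number out, and with it as a block 45 members were called higher. Names and positions came from Ensembl release 115 and RefSeq, both on WBcel235, which placed all 220 members. Members and lists were chosen with earlier results of these data known. Named in full were the 10 largest changes among members called, the 5 highest means, the 3 most negative changes and the 4 largest differences below the filter, and outside this rule fbxa-6 and fbxa-24, the members listed as lowest in replicate 2, and the neighbours in blocks. No sequence was at hand, so none is printed.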

Additional observations from a re-analysis of the deposited data

How the results depend on the processing

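The number of F-box A genes called higher, 36, stayed within 1.5 times under the other scalings, pseudocounts, filters and fits of the report, apart from 21 with quantile normalization and 2 without both replicate 3 libraries, where 2 libraries a group remain. Leaving out 1 library gave 12 to 31. Median-of-ratios rescaling moved the median log2 fold change of all features from 0.09 to -0.02, and that of the tested members from 0.39 to 0.31. The number called lower was 0 under each setting but 1, with 1 gene (fbxa-42) without both replicate 2 libraries. The log2 fold change of fbxa-72 ran from -0.3882 to 0.0994 when 1 library was left out, the latter without rab-11.1 RNAi replicate 2, and turned to 0.2825 without both replicate 2 libraries. Neither the 36 members called nor fbxa-156, fbxa-42, fbxa-84 and fbxa-192 changed sign in the settings run, and the 4 members named below the filter were not followed across settings. Leaving out both replicate 2 libraries, which also leaves 2 libraries a group, gave 39 members called higher. The cause of the differences between settings was not tested. The replicate block (45 members) ended 0 of the 36 calls and added 9, among them fbxa-156. The annotation gave no further fbxa gene listed under another name. Members under about 1 RPKM rest on few reads, which limits what can be called there.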
